A study of Equus caballus with 13 samples.

Results

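Ribosomal protein genes encode the proteins of the cytosolic ribosome, and 67 of them were followed here among the 11331 genes for which RNA kinetics were listed in horse (Equus caballus) chondrocytes, the cells of cartilage. They were chosen by name alone, from RPL or RPS with a number, RPLP0 to RPLP2 and RPSA, leaving out the kinases named RPS6K. Of these rows 39 belonged to the large subunit and 28 to the small subunit, and all 67 were listed in both tables that the study's authors deposited. Both the 39 and the 28 include paralogs, genes whose name ends in L or L1 and which resemble a standard ribosomal protein: RPL3L, RPL7L1, RPL22L1, RPL26L1 and RPS27L. The names RPL26 and RPL26.1 stood for separate rows of the same gene name, and which locus each came from was not given in the sources used here.

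The 13 samples fell into 3 groups, all labelled wild type and all from cartilage: 5 old female, 5 young female and 3 young male. Chondrocytes had been cultured for 2 days and then labelled for 4 h with 4-thiouridine (4sU), a uridine analogue that marks newly made RNA, in every group including the young female reference. One deposited table set old against young female cells and the other young male against young female cells. Each gave a synthesis rate and a half-life per gene and group, with no value per sample, so depth is unknown and no value below carries a replicate error or a test. Ages in years, and whether each sample was 1 animal, were not stated. The labels gave 12 batch labels for the 13 samples, of which only batch 10 held 2 samples, 1 of each young group. Batch therefore cannot be told apart from sample, and no batch values could be had from group values.

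Ribosomal proteins are made in near equal numbers for assembly into the small subunit, which reads the mRNA, and the large subunit, which forms the peptide bond. In animals their mRNAs carry a 5′ terminal oligopyrimidine (TOP) tract, a stretch of pyrimidines at the very start of the message, through which growth signalling by mTOR and the binding protein LARP1 controls their translation and storage. They are known in many cell types as abundant and stable messages.

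The ribosomal protein RNAs were long-lived in every group. In young female cells their median half-life was 34.4 h in the age table (quartiles 24.9 and 42.1 h) and 34.1 h in the sex table, against 3.64 and 3.74 h for all genes. The median was 42.3 h in old female cells and 49.5 h in young male cells, against 3.43 and 4.63 h for all genes. A half-life over 24 h was listed in young female cells for 51 of the 67 genes in each table, where the share of all genes was 7.38% in the age table and 7.6% in the sex table. In old cells it was 55 of 67, against 7.06% of all genes, and in male cells 60 of 67, against 12.1%. The same 51 genes were over 24 h in all 4 columns of values, 9 were so in some columns, and 7 were at or under 24 h throughout.

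Such half-lives lie far beyond the labelling time. At a constant decay rate, a half-life of 24 h corresponds to 10.9% of the RNA having been made during the 4 h of labelling. The median ribosomal protein half-life corresponded to a new share of 7.74% in young female cells, 6.34% in old cells and 5.44% in male cells (7.81% in the young female column paired with the male one). Values stopped at a ceiling of 69.3 h, a new share of 3.92%, which 3 members reached in young female cells of both tables (0.823% and 0.951% of all genes), 5 in old cells (0.787%) and 14 in male cells (2.59%). At the ceiling any lengthening was not detectable.

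**Figure D1:**
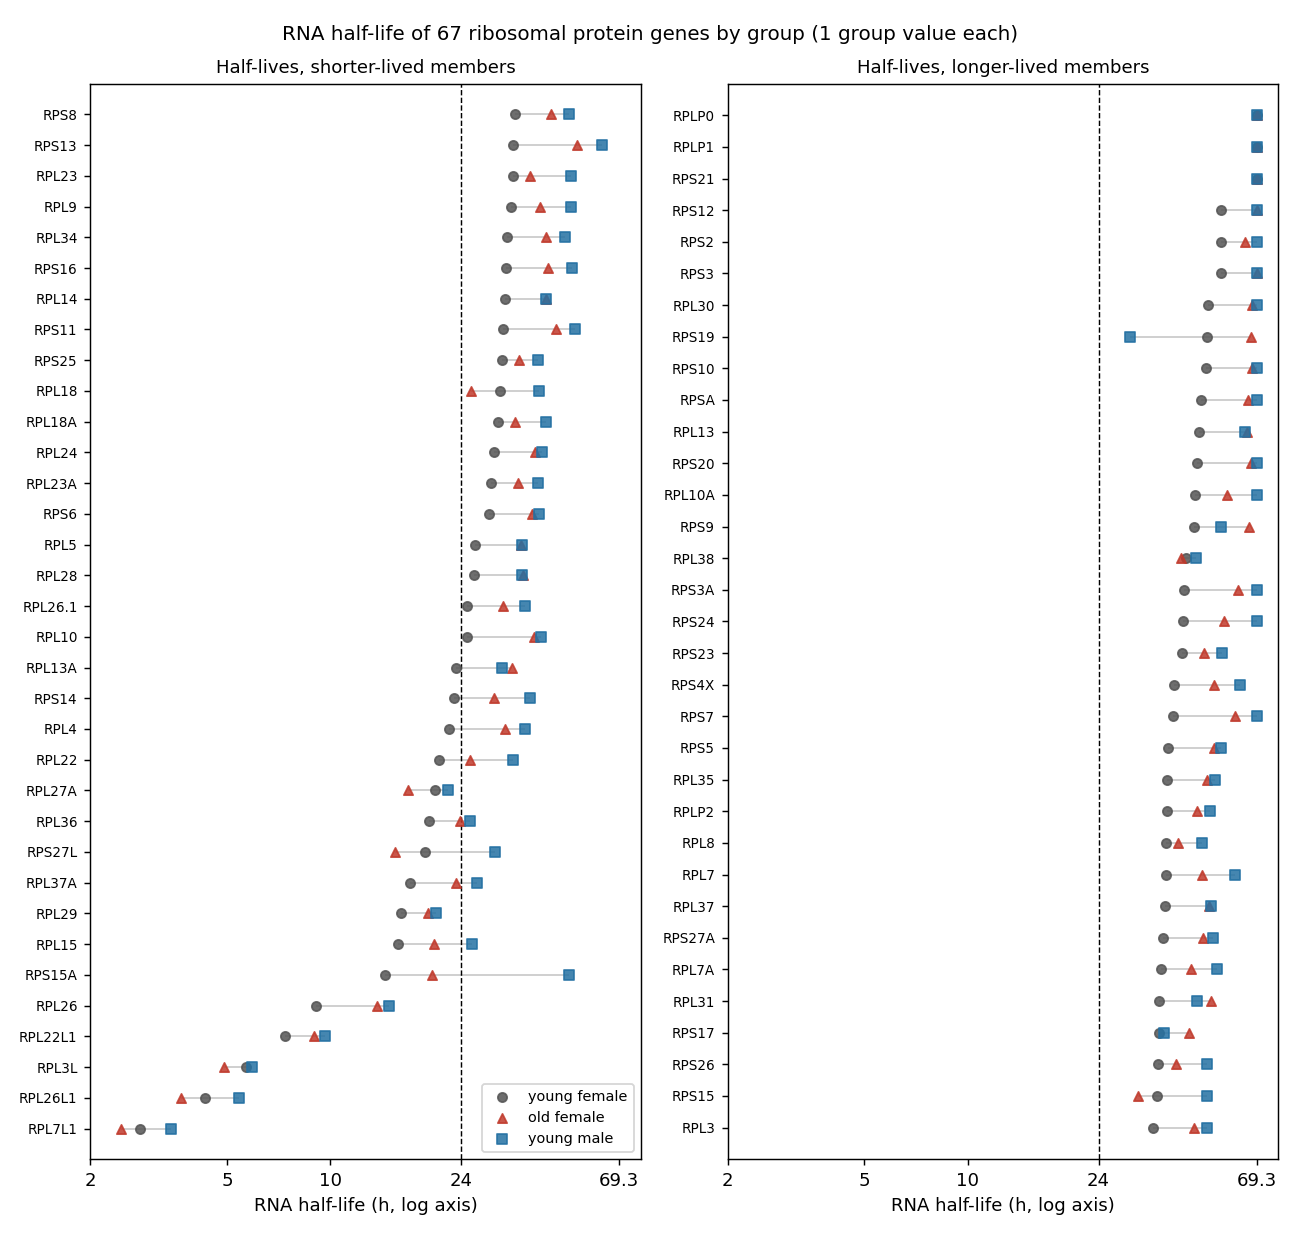
RNA half-life (h, log axis) of the 67 ribosomal protein genes, 1 group value each, with young female (age table) as circles, old female as triangles and young male as squares; the dashed line marks 24 h and the last axis label the ceiling of 69.3 h. The paralogs RPL7L1, RPL26L1, RPL3L and RPL22L1 sit at the short end, and RPLP0, RPLP1 and RPS21 lie at the ceiling in all 3 groups.

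Estimation alone moved these values little. The young female libraries are common to both tables, and 63 of the 67 genes had young female half-lives within 1% of each other. RPS15 differed most, at 35.6 h in one table and 33.6 h in the other (0.08 log2 units), and the other 3 were RPL34, RPL22L1 and RPL38 (0.04 each). This repeat contains none of the variation between animals.

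Among the large subunit genes the half-lives ran from a few hours to the ceiling. RPLP0 and RPLP1, which form part of the stalk that recruits elongation factors, were at 69.3 h in every group. RPLP2, the other stalk protein, was at 38.0 h in young female, 46.4 h in old and 50.7 h in male cells. The stalk genes therefore did not share 1 half-life.

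RPL5, which with the 5S ribosomal RNA forms a particle that can bind MDM2, was at 26.3 h in young female, 35.9 h in old and 36.2 h in male cells. RPL10, a late-joining protein near the peptidyl transferase centre, was at 24.9 h in young female, 39.0 h in old and 41.0 h in male cells. RPL13A, also known as a regulator of inflammatory mRNAs, had values of 23.2, 33.7 and 31.6 h in the same order. These 3 genes lay near the 24 h limit in young female cells and well above it in the other groups. RPL38, a gene whose loss disturbs skeletal patterning in mice, was at 43.2 h in young female, 41.8 h in old and 46.1 h in male cells, a narrower range than theirs.

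Small subunit genes had a longer median half-life than large subunit genes in each group, 38.8 against 30.8 h in young female, 52.0 against 38.0 h in old and 54.6 against 41.3 h in male cells. The longest values under the ceiling in young female cells were those of RPS12, RPS2 and RPS3, at 54.7, 54.5 and 54.4 h. RPS2 and RPS3 line the channel through which mRNA enters the ribosome. All 3 were at the ceiling in male cells, and RPS3 and RPS12 also in old cells. RPSA, also described as a laminin receptor, had a half-life of 47.6 h in young female, 65.3 h in old and 69.3 h in male cells.

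RPS6, the small subunit protein phosphorylated by S6 kinases downstream of mTOR, was at 29.0 h in young female, 38.7 h in old and 40.4 h in male cells. RPS25, which some viral and cellular mRNAs need for internal initiation, had values of 31.5, 35.3 and 40.3 h in that order. RPS4X, the X-linked RPS4 gene, was at 39.7, 52.1 and 62.1 h. In each of these 3 genes the young female value was the lowest of the groups.

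Paralogs of the standard proteins stood at the short end of the list. RPL7L1, which takes part in ribosome assembly, had the shortest half-life, 2.79 h in young female, 2.46 h in old and 3.43 h in male cells, whereas RPL7 was at 37.7, 48.1 and 59.9 h. RPL3L, known as a muscle form of RPL3, was at 5.68, 4.91 and 5.90 h, against 34.6, 45.4 and 49.5 h for RPL3. RPL7 thus outlasted RPL7L1 by 13.5-fold in young female, 19.6-fold in old and 17.5-fold in male cells, and RPL3 outlasted RPL3L by 6.09-, 9.25- and 8.40-fold.

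RPL26L1 was at 4.31 h in young female, 3.67 h in old and 5.41 h in male cells. The row RPL26.1 was at 24.9, 31.7 and 37.0 h and the row RPL26 at 9.09, 13.7 and 14.8 h. RPL22L1 was at 7.37, 8.93 and 9.67 h, against 20.6, 25.6 and 34.1 h for RPL22. In every group the paralog had the shorter half-life of each of these pairs. RPS27L, a gene induced by p53, had the longest half-life of the paralogs, 18.8 h in young female, 15.4 h in old and 30.1 h in male cells. Its partner RPS27 was not listed under that name, nor were RPL11, RPL36A and RPL39. Of 20 further ribosomal protein symbols looked for, these among them, 0 were listed. Medians and sums over the members therefore cover only part of the ribosomal proteins.

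Besides RPL7L1, RPL3L, RPL26L1 and RPL22L1, half-lives stayed within 1 to 24 h for RPL29 (16.1 h in young female, 19.2 h in old and 20.3 h in male cells) and RPL27A (20.2, 16.8 and 21.9 h), and for the RPL26 row. The order of the 67 half-lives was similar in the old and the male columns, which share no library (Spearman correlation across the genes 0.89, and 0.86 across the 62 genes that are not paralogs). These points are genes within 2 group estimates and are no replicates of a group.

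Mitochondrial ribosomal protein genes, which encode the ribosome that translates the mitochondrial genome, did not share the long half-lives. The median of the 65 listed was 3.65 h in young female, 3.51 h in old and 4.73 h in male cells, near the median of all genes. Ribosome assembly factors, the 43 listed of 45 genes that process ribosomal RNA and build the subunits, had medians of 3.91, 3.25 and 4.93 h, and 0 of them exceeded 24 h in any group. The longest half-life of an assembly factor in young female cells was 15.2 h, below the lower quartile of the ribosomal protein genes.

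**Figure D2:**
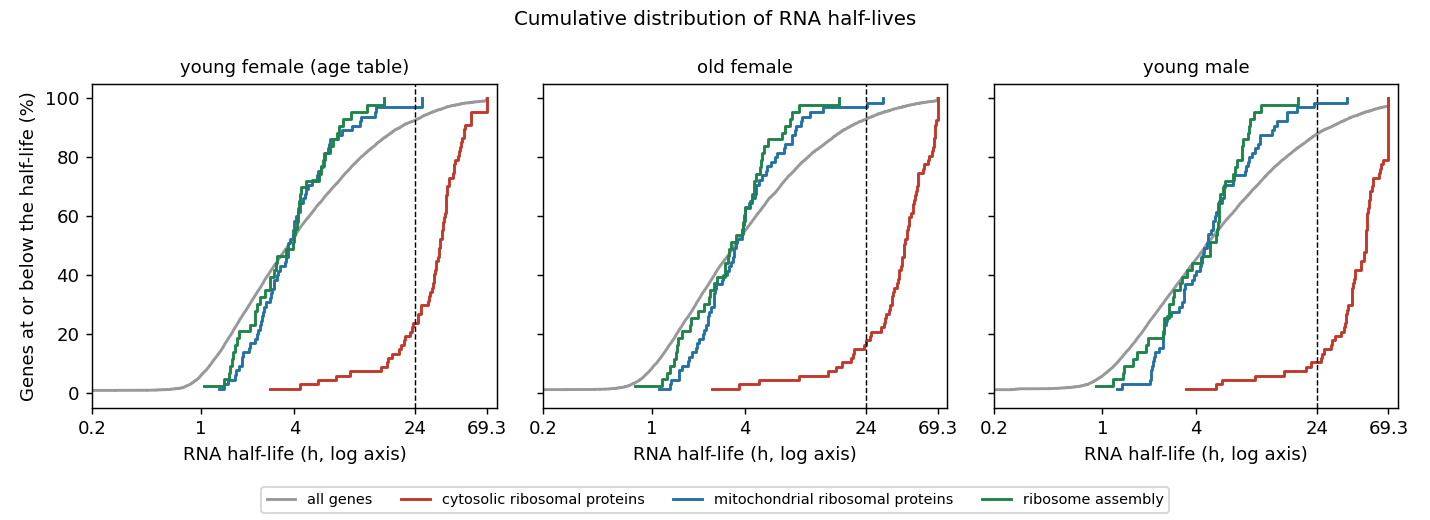
Percentage of genes at or below each RNA half-life (h, log axis) in young female, old female and young male cells, for all genes, the 67 cytosolic and 65 mitochondrial ribosomal protein genes and 43 ribosome assembly genes; the dashed line marks 24 h. The cytosolic ribosomal protein curve lies to the right of the others in each group, with medians of 34.4, 42.3 and 49.5 h.

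The age comparison addressed how RNA kinetics differ between old and young cartilage cells. In old female cells 56 of the 67 ribosomal protein genes had a longer half-life than in young female cells, 8 had a shorter one and 3 were at the ceiling in both groups; of all genes 36.5% were longer. Half-lives had a median log2 ratio of 0.35, a 1.28-fold difference, against −0.08 for all genes. Synthesis rates were lower for 43 of 67, with a median log2 ratio of −0.08 against 0.08 for all genes, of which 39.8% were lower; relative to that median, 12 of 67 were higher. With the young female rates of the sex table in the ratio, the count was close to even, 33 of 67 being higher, with a median of −0.021. Those rates lay on a lower scale for nearly all members, as for RPLP0 (1580 against 1655). This swap therefore shows only that the uncentred count depends on that scale. The implied level, the product of the 2 deposited values over ln 2, was higher for 62 of 67 (50.7% of all genes), with a median log2 ratio of 0.30 against 0.00. Among the 12 members, paralogs included, listed between 1 and 24 h in old and young cells alike, 7 had a longer half-life and 7 a higher level. In bulk cultures, fewer cells of a type and less RNA per cell cannot be told apart.

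These differences were small. None of the 67 genes reached a 2-fold difference (absolute log2 ratio of at least 1) in half-life, synthesis rate or implied level, a size reached by 3.53%, 7.52% and 4.12% of all genes. All genes are not matched to the members by level, here or in the sex comparison. Their median implied level in young female cells of the age table was 1615, against 29946 for the members. An absolute log2 ratio of at least 0.5 was found for 11 members in half-life (13.4% of all genes), 4 in synthesis rate (23%) and 2 in level (15.6%), all of them higher in old cells. The summed implied level of the 67 genes was 1.25-fold higher in old cells, against 1.06-fold for all genes together, and their share of the summed level was 4.70% in old and 3.97% in young female cells. Their summed synthesis rate was 1.00-fold that of young female cells, and their share of the total was 0.451% in old and 0.486% in young female cells. These shares use values that are not stated to be per transcript length.

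Among members under the ceiling in old cells, the highest half-life ratio was that of RPL10, at 24.9 h in young female and 39.0 h in old cells (log2 ratio 0.65). RPS13 was listed at 34.0 h in young female and 52.1 h in old cells (0.62), and RPS7 at 39.4 and 60.0 h (0.61). All 3 had lower synthesis rates in old cells, with log2 ratios of −0.21, −0.27 and −0.24. RPS3A, at 42.6 and 61.2 h, had a synthesis rate ratio of −0.03 and the highest level ratio (0.49) after those of the stalk genes.

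A few genes showed the reverse division between synthesis and stability. RPL18 had a half-life of 31.2 h in young female and 25.6 h in old cells, with synthesis rates of 703 and 1000 (arbitrary units). RPL27A was at 20.2 and 16.8 h, with synthesis rates of 1082 and 1537. RPS15 was at 35.6 and 31.3 h, with rates of 584 and 825. The synthesis ratios of these 3 genes were 0.51, 0.51 and 0.50 on the log2 scale, but their level ratios of 0.22, 0.24 and 0.31 lay within the range of the other members. RPL38 (log2 half-life ratio −0.05) and the paralogs RPL7L1, RPL3L, RPL26L1 and RPS27L were the remaining genes with shorter half-lives. All 8 had higher synthesis rates in old cells, against 60.2% of all genes. Synthesis and half-life ratios opposed each other across all genes as well (Spearman correlation −0.53), so this division is not particular to these members.

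RPLP0, RPLP1 and RPS21 had capped half-lives in old and young cells alike, which left their whole difference in the synthesis rate. RPLP0 had synthesis rates of 1655 in young female and 2416 in old cells, a log2 ratio of 0.55, and RPLP1 had rates of 926 and 1341 (0.53). The level ratios of these stalk genes have the same values and were the highest of the 67 genes. RPS21 had a synthesis ratio of 0.32, and RPLP2, under the ceiling, had a level ratio of 0.20.

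At the other end, the level of RPL36 was 7330 in young female and 6655 in old cells, a log2 ratio of −0.14, with the lowest synthesis ratio of the list (−0.44). It was the one standard ribosomal protein gene with a lower level in old cells, since 61 of the 62 genes that are not paralogs were higher. RPS10 (synthesis ratio −0.37, level ratio 0.06) and the RPL26 row (−0.40 and 0.19) also had low synthesis ratios but not lower levels. Of the paralogs, 4 of 5 had lower levels (49.3% of all genes), from −0.25 for RPS27L to −0.02 for RPL3L, and RPL22L1 was higher at 0.10. The paralogs' median half-life ratio was −0.21, against 0.38 for the 62 other members and −0.08 for all genes.

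**Figure D3:**
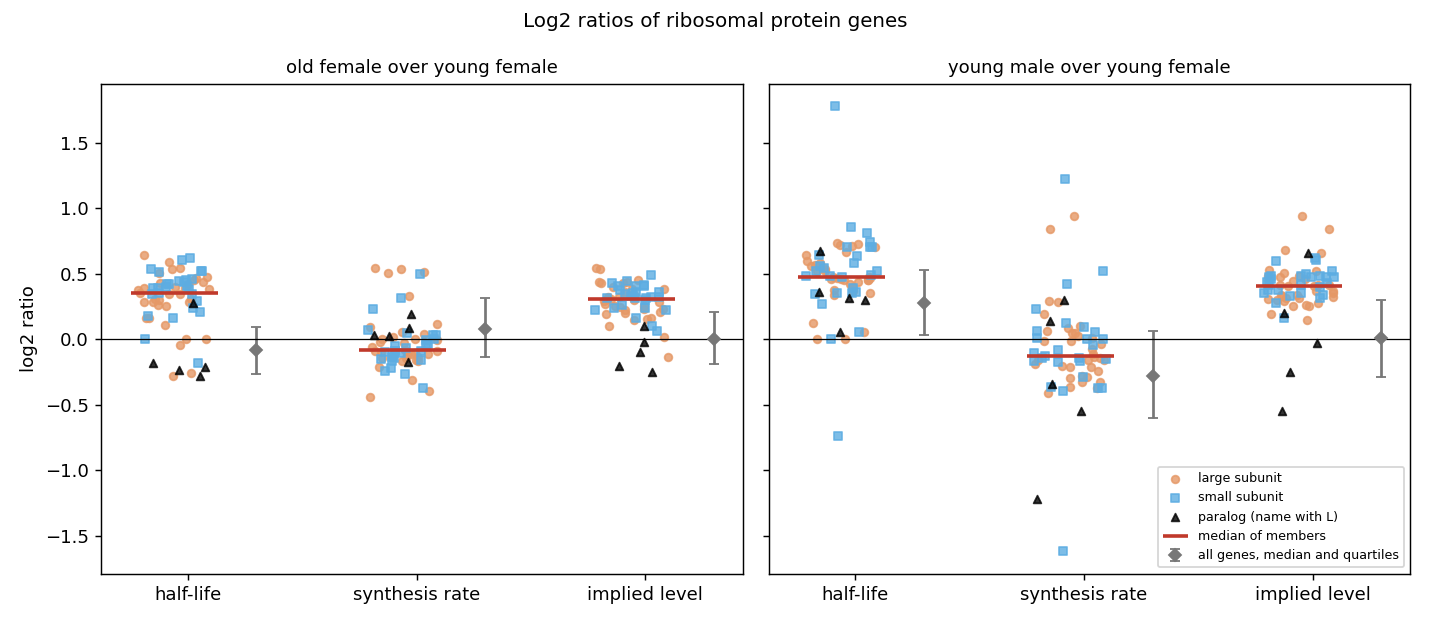
Log2 ratios of half-life, synthesis rate and implied level for the 67 ribosomal protein genes in old over young female and young male over young female cells, with large subunit genes as circles, small subunit genes as squares and paralogs as triangles; lines mark the members' medians, and diamonds with bars the median and quartiles of all genes. Level ratios are more tightly grouped than half-life or synthesis ratios, and RPS15A, RPS19 and RPS27L lie apart in the male comparison.

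The sex comparison set male against female cells of the young groups. A longer half-life in male cells was listed for 63 of 67 ribosomal protein genes, with 1 shorter and 3 at the ceiling in both groups, against 77.3% longer among all genes. Their median log2 half-life ratio was 0.47 (0.27 for all genes), and their median synthesis ratio was −0.13 (−0.28 for all genes), with 43 of 67 lower and 71.1% of all genes lower. Relative to the medians of all genes, 58 of 67 members were above for half-life, and the synthesis count turned, with 50 of 67 above. With young female rates from the age table, 16 of 67 were higher in synthesis. Those rates lay on a higher scale for nearly all members, as for RPLP1 (926 against 884), and this count follows that scale. Implied levels were higher for 64 of 67 (50.5% of all genes), with a median log2 ratio of 0.41 against 0.01. Relative to genes of similar half-life in old cells (below), 30 of 67 were above the median for half-life and 30 for level. The summed level of the members was 1.38-fold higher in male cells, but that of all genes was 1.31-fold higher, so the members' share was 4.19% in male and 3.96% in young female cells. The share of the summed synthesis rate was 0.482% and 0.529%.

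The difference of 2-fold was reached for half-life by RPS15A alone (7.58% of all genes), for synthesis rate by RPS15A, RPS27L and RPS19 (12.2%), and for level by 0 members (4.61%). Relative to the medians of all genes, RPS19 also passed 2-fold in half-life (−1.02), and RPLP0 (1.22) and RPLP1 (1.12) passed it in synthesis rate while RPS27L no longer did. At 0.5 log2 units half-life counted 30 members (31.8% of all genes), synthesis rate 7 (41.1%) and level 13 (25%). RPS15A had a half-life of 14.4 h in young female and 49.5 h in male cells, a log2 ratio of 1.78, while its synthesis rate was 6.92 in young female and 2.25 in male cells (−1.62). Its level was 144 and 161, a ratio of 0.16. The row had the lowest synthesis rate of the 67 in young female cells, on a scale not stated to be per length, and whether it stands for the gene or a near-identical copy is not given in the sources used here. In the age table the same row was at 14.4 h in young female and 19.8 h in old cells, with synthesis rates of 7.26 and 7.01.

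RPS19, a gene mutated in Diamond-Blackfan anaemia, was the one member with a shorter half-life in male cells. It was at 49.6 h in young female and 29.6 h in male cells (−0.74), and its synthesis rate was 333 and 778 (1.22). Its level ratio of 0.48 was nevertheless close to the members' median. In the age table RPS19 had a half-life of 49.7 h in young female and 66.5 h in old cells, with synthesis rates of 348 and 327.

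RPS27L had a synthesis rate of 154 in young female and 65.7 in male cells (−1.22), or −0.95, and so under 2-fold, relative to the median of all genes. Its half-life was 18.9 and 30.1 h, and its level, 4179 and 2853, had the lowest ratio of the members (−0.55). RPL7L1 (level ratio −0.25, synthesis ratio −0.55) and RPL26L1 (−0.03 and −0.34) were the other members with lower levels. All 62 genes that are not paralogs were higher in level, from 0.15 for RPL24 upwards.

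The highest level ratios were again those of the stalk genes at the ceiling. RPLP0 had synthesis rates of 1580 in young female and 3031 in male cells (0.94), and RPLP1 had rates of 884 and 1586 (0.84). RPL10A followed with a level ratio of 0.68, its half-life being 45.8 h in young female cells and at the ceiling in male cells. After RPS15A, the longest half-life ratios were those of RPS13 (34.0 and 61.6 h, 0.86) and RPS7 (39.5 and 69.3 h, 0.81). In total 11 members were at the ceiling in male but not in young female cells, so that their listed half-life ratios, RPS7 among them, are lower bounds and their order is not fixed.

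Both comparisons share the young female samples, so agreement between them is not independent. For RPL10 the log2 half-life ratios were 0.65 with age and 0.72 with sex, for RPS6 0.42 and 0.48, for RPL5 0.45 and 0.46, for RPS4X 0.39 and 0.65, and for RPL38 −0.05 and 0.06. With 1 value per group, the difference between an age ratio and a sex ratio was not tested.

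Long half-lives as such went along with larger ratios in male cells. Of all genes over 24 h in old cells, the group outside this ratio, 82.1% had a longer half-life and 90.7% a higher level in male than in young female cells; of the 55 ribosomal protein genes among them, 51 and 55 did. In the decile with the longest old half-lives, which held 60 of the 67 members, the median log2 ratio of all genes was 0.51 for half-life and 0.43 for level. Once each gene was centred on the median of its decile, the members' medians were −0.024 for half-life and −0.016 for level, with 30 of 67 above 0 in each. The members' median in male cells was thus close to that of the long-lived RNAs at large, a comparison with no test.

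The age comparison differed in this respect. Of all genes over 24 h in male cells, 47.9% had a longer half-life and 56.8% a higher level in old than in young female cells, whereas 53 and 58 of the 60 ribosomal protein genes among them did. The decile with the longest male half-lives, with 57 members, had a median log2 ratio of 0.00 for half-life and 0.08 for level. After centring within deciles the members' medians were 0.37 for half-life, with 56 of 67 above 0, and 0.24 for level, with 61 of 67 above 0.

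**Figure D4:**
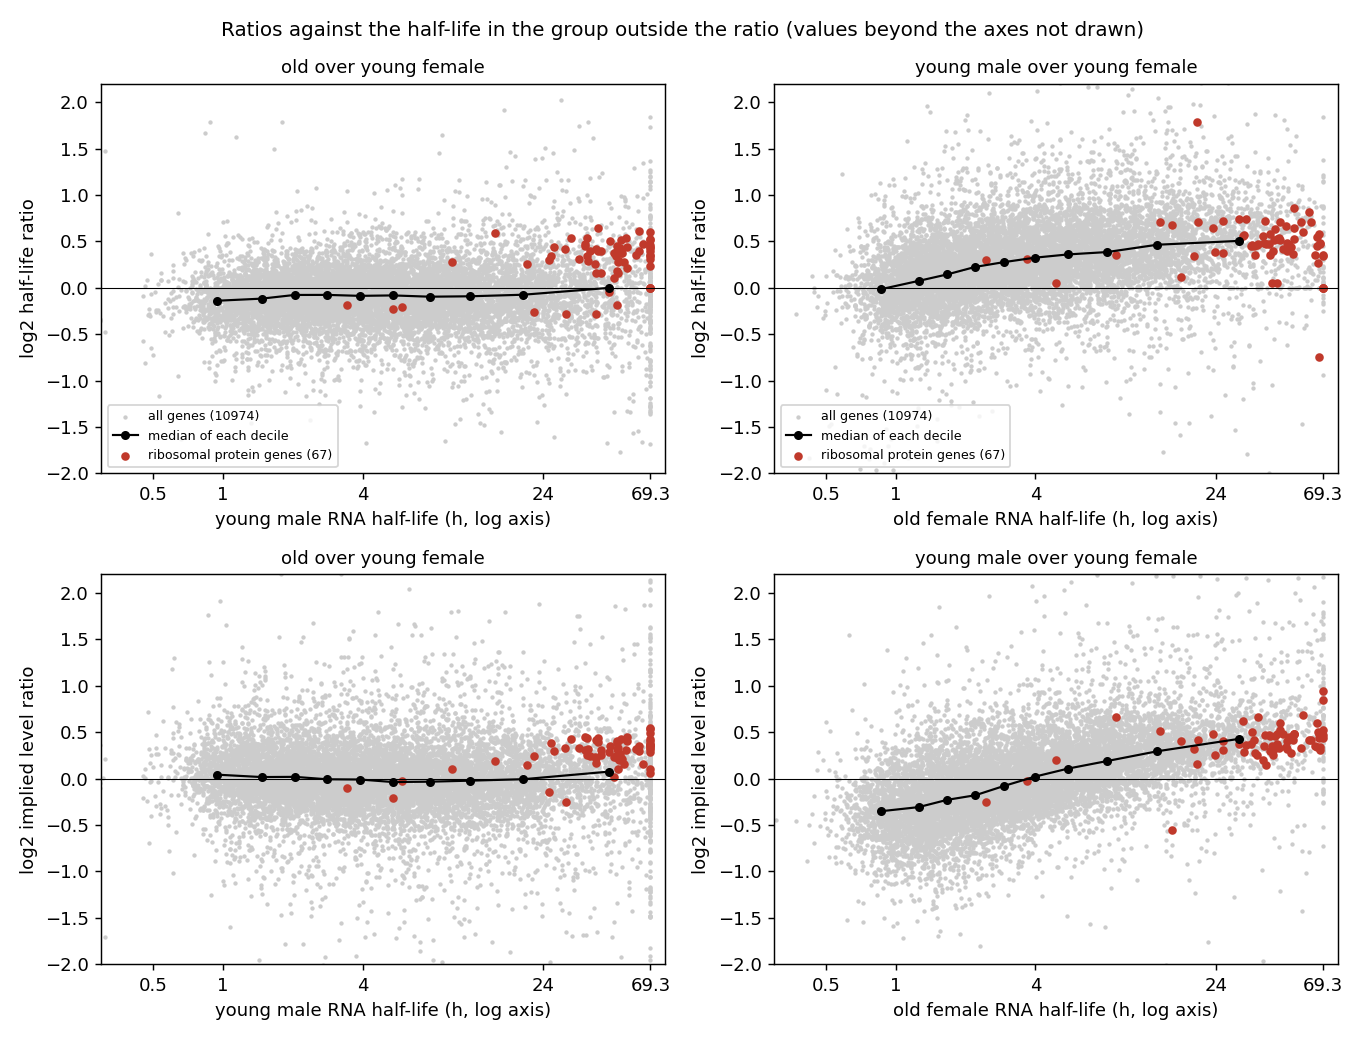
Log2 ratios of half-life (top) and implied level (bottom) for all genes in grey and the 67 ribosomal protein genes in red, against the half-life (h, log axis) of the group that does not enter the ratio; black points join the medians of 10 deciles. In old over young female cells most members lie above the decile medians, and in young male over young female cells they lie around them.

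Level ratios spread less than half-life or synthesis ratios, among the members as among all genes. Across the 62 genes that are not paralogs, the SD of the log2 ratio between old and young female cells was 0.20 for half-life and 0.21 for synthesis rate but 0.12 for level. In the male comparison the SDs were 0.30, 0.37 and 0.14. For all genes the SDs were 0.73, 0.81 and 0.44 with age and 0.79, 0.87 and 0.52 with sex. Synthesis and half-life ratios opposed each other across the 67 genes, with a Spearman correlation of −0.69 with age and −0.74 with sex, against −0.53 and −0.55 across all genes. The points of each correlation share their libraries, and both ratios come from the same estimate.

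Other components of the same machinery had similar values. FAU, which encodes a small subunit protein fused to a ubiquitin-like sequence, and RACK1, a scaffold on the small subunit, were outside the name rule. FAU was at 27.9 h in young female, 37.0 h in old and 48.3 h in male cells. RACK1 was at 23.9, 30.8 and 34.8 h. Their level ratios were 0.28 and 0.29 with age and 0.39 and 0.53 with sex, inside the range of the standard members.

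Of 25 further genes with TOP messages, mainly translation factors, 22 were listed. With age, 20 of the 22 had longer half-lives (median 0.24; 36.5% of all genes) and 20 had higher levels (median 0.22; 50.7%). With sex, 22 had longer half-lives (0.60), where 77.3% of all genes did, and 19 had higher levels (0.34; 50.5%). This list was not matched by half-life, its median being 16.8 h in old cells against 3.43 h for all genes. In deciles 9 and 10 by old half-life, the longest, all genes had half-life medians of 0.46 and 0.51 with sex. Their level medians were 0.29 and 0.43. EEF1A1, the factor that brings aminoacyl-tRNA to the ribosome, was at 30.0 h in young female, 42.4 h in old and 56.0 h in male cells, with level ratios of 0.61 and 0.68. TPT1 was at 38.2, 59.3 and 69.3 h, with level ratios of 0.58 and 0.51. EEF2, the translocation factor, was at 9.88, 11.6 and 13.3 h, with level ratios of 0.10 and 0.58, so long half-lives were not common to all genes of the list.

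Ribosome assembly genes had level medians below 0 in both comparisons. With age, 34 of 43 had shorter half-lives (median −0.17) and 28 had lower levels (−0.08), against 63.1% and 49.3% of all genes. With sex, 35 had lower levels (median −0.22), against 49.5% of all genes, and 37 had lower synthesis rates (−0.41), against 71.1% of all genes. The list was not matched by half-life. In deciles 1 to 5 by old half-life, the shortest, all genes had level medians of −0.35 to −0.08 with sex. Of the 43, 4 were lower by 2-fold or more in synthesis rate, against 8.37% of all genes, and 35 had longer half-lives (median 0.25), against 77.3% of all genes. Mitochondrial ribosomal protein genes had median level ratios of 0.01 with age, 36 of 65 being higher (50.7% of all genes). With sex the median was 0.07, also with 36 of 65 higher (50.5%). The cytosolic members' medians of 0.30 and 0.41 were above both lists, a difference that was not tested. Neither list was matched to the members by half-life. In the decile with the longest old half-lives, which held 60 of the 67 members, all genes had a level median of 0.43 with sex. Centred within deciles, the members' level median with sex was −0.016.

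**Figure D5:**
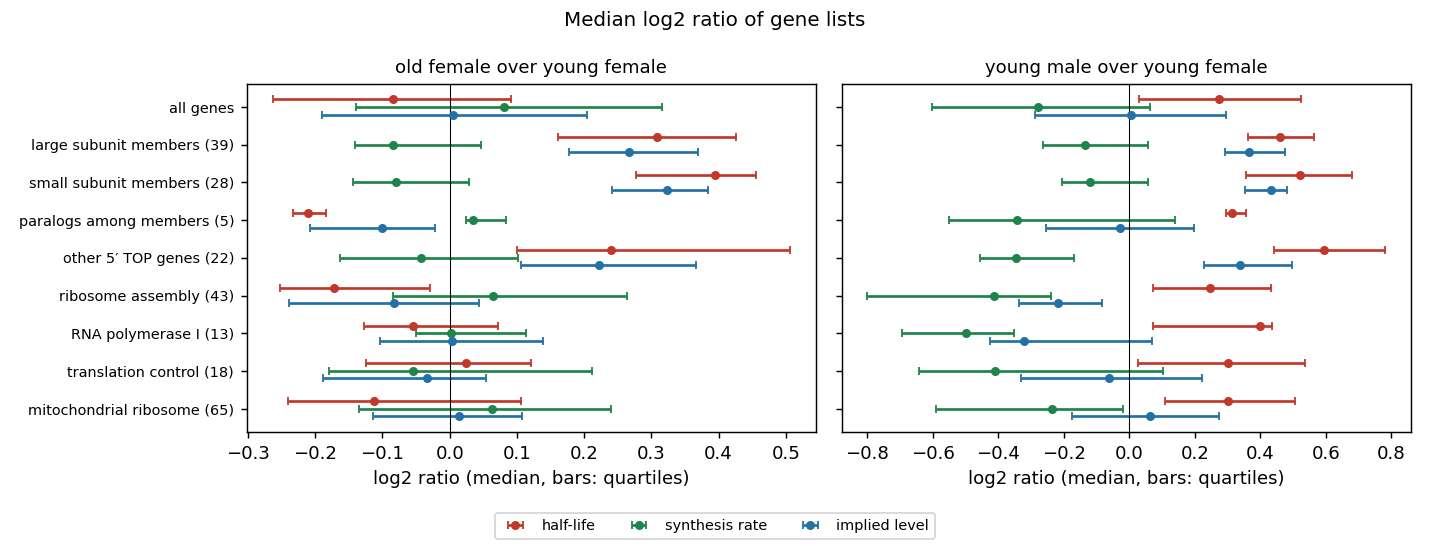
Median log2 ratio of half-life, synthesis rate and implied level for all genes, the large and small subunit members (paralogs included), the paralogs, and lists of related genes, with the number listed in parentheses; bars span the quartiles. In old over young female cells the subunit and TOP lists have positive half-life and level medians while the assembly list is below 0, and in male cells half-life medians are positive in every list.

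Cell composition was looked at through markers. Of 11 chondrocyte markers 10 were listed, among them COL2A1, ACAN and SOX9, while PRG4 was not analysed here. The markers of other cells listed were 1 of 6 macrophage, 1 of 4 endothelial, 2 of 4 bone and 0 of 3 red cell genes. Chondrocyte markers held 2.85% of the summed implied level in young female and 2.44% in old cells, and 2.85% in young female and 5.49% in male cells of the sex table. The 5 fibroblastic markers held 0.25% and 0.11%, and 0.24% and 0.46%. Both lists differed between the groups. In male cells 9 of 10 chondrocyte and 4 of 5 fibroblastic genes were higher in level, against 50.5% of all genes. In old cells 7 of 10 and all 5 were lower, against 49.3% of all genes. These lists were not matched by half-life. The chondrocyte median was 37.8 h in old cells, and of all genes over 24 h there 90.7% had a higher level in male cells. COL1A1 and COL1A2, fibrillar collagen genes of the fibroblastic list, had log2 level ratios of 4.19 and 3.40 with sex and −2.86 and −1.82 with age. The bone markers listed, IBSP and ALPL, had ratios of 2.19 and 2.61 with sex and 0.77 and −0.67 with age, and their share of the summed level was 0.00662% in young female and 0.0269% in male cells. The macrophage marker CD14 and the endothelial marker VWF each had a ratio of 0.26 with age, and 0.15 and 0.04 with sex. The part of these markers in the ribosomal protein results was not tested.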

How the data were processed

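RNA from 13 samples of 4sU-labelled horse chondrocytes was alkylated with iodoacetamide for 15 min, which marks the incorporated 4sU, and sequenced after poly(A) selection with a directional kit, per the labels' protocols. Cutadapt 4.5, STAR 2.5.3 and the build EquCab3.0 are named in the submitters' processing notes; the kinetic model, the gene filter and the counting of reads shared with near-identical copies are not given in the sources used here, and ribosomal protein genes have many processed pseudogenes, so each value is uncertain to that extent. The deposited tables hold 1 synthesis rate (arbitrary units) and 1 half-life per gene and group, per the file headers, with 0 columns of values per sample. The time unit was taken to be hours, since the label was applied for 4 h and every half-life column stops at 69.3, a decay rate of 0.01 per h. The column headed Young was read as young female, since the labels assign those samples to that table.

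With Python 3.11.15 and pandas 2.3.3, log2 ratios were computed within each table, with no pseudocount and no filter, and the implied level was derived on the assumption of constant RNA levels. Genes were called at an absolute log2 ratio of 1. As the tables held group values, the tests planned for values per sample could not be used, and differences are described beside those of all genes. The computation was tested on simulated data. Of the member names, 66 of 67 matched a RefSeq symbol (assembly TB-T2T, used for names only).

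The members and lists were chosen with earlier results of these data known. Named genes were the paralogs and their partners, the stalk genes and RPSA, members past 2-fold, the 3 highest and lowest ratios per measure, members of 1 to 24 h in every column, the 3 longest and shortest half-lives, and well-known members. RPS15, RPS21 and RPL24 were chosen after their values were seen, as were RPL34, EEF1A1, TPT1 and EEF2.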

Additional observations from a re-analysis of the deposited data

How the results depend on the processing

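With no replicate values, shifts of over 0.05 log2 units in a median, 5% in a share of a sum and 1.5 times in a count are given. Centring on the median of all genes gave members' medians of 0.44 (half-life) and −0.16 (synthesis) with age, and 0.20 (half-life) with sex; the synthesis median with sex turned to 0.15, with 50 of 67 above 0. Centring within half-life deciles turned the half-life and level medians with sex to −0.024 and −0.016, and gave −0.060 for synthesis with sex and 0.24 for level with age. Among genes of 1 to 24 h in both groups, 12 members with age had medians of 0.27, −0.012 and 0.12 for half-life, synthesis and level (7, 6 and 7 of 12 above 0), and 7 members with sex had 0.31, −0.017 and 0.32 (7, 3 and 5 above 0). With young female values taken from the opposite table, synthesis and level medians were −0.021 and 0.37 with age (33 and 63 of 67 above 0). With sex they were −0.19 and 0.34 (16 and 64). Young female rates lie on different scales in the 2 tables (RPLP0 1655 and 1580). These shifts follow that scale, which moves nearly all members alike. At a log2 threshold of 0.5, members past it for half-life, synthesis and level numbered 11, 4 and 2 with age, against 0 each, and 30, 7 and 13 with sex, against 1, 3 and 0. The count past 2-fold in half-life with sex was 2 under either centring, RPS19 joining RPS15A, and 0 among genes of 1 to 24 h, in the upper 75% by synthesis rate and without the RPL26 and RPS15A rows. The synthesis count with sex was 0 among genes of 1 to 24 h. The medians stayed within 0.05 without genes at the ceiling, in the upper 75% by synthesis rate, without the paralogs, and, both chosen after seeing the data, without the rows RPL26 and RPS15A, which had the lowest implied levels of the members, and among genes in both tables. Shares of the sums stayed within 5% among genes in both tables.

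No paired analysis was possible because the tables hold 1 value per gene and group, so leaving out a replicate was not run either. Depth is unknown, and most members lie beyond the half-lives that 4 h of labelling resolves well.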

Other observations

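Genes that control the translation of ribosomal protein messages were shorter-lived. Levels were higher for 8 of 18 with age and 8 of 18 with sex, near the 50.7% and 50.5% of all genes. Of the 20 genes on the list 18 had rows, and their median half-life was 4.35 h in young female, 4.29 h in old and 4.76 h in male cells. LARP1, which binds TOP messages, was at 2.41 h in young female, 2.45 h in old and 2.94 h in male cells, with log2 level ratios of 0.24 and −0.10. MTOR was at 3.73, 4.40 and 4.63 h, with level ratios of 0.04 and −0.13. EIF4EBP1, a repressor of cap-dependent translation, was the 1 gene of the list past 2-fold in level, in old cells (4.12% of all genes). Its log2 ratios there were 1.27 for level and 1.05 for synthesis (0.97 relative to the median of all genes). A 2-fold difference in synthesis with age was reached by 7.52% of all genes. In male cells its level ratio was 0.72. MYC, a transcriptional activator of ribosome production, was listed under 1 h in every group, which 4 h of labelling resolves poorly. Its synthesis ratio in male cells was −1.21, or −0.93 relative to the median of all genes. EIF4E, the cap-binding factor, had a synthesis ratio of −1.11 in male cells, or −0.83 relative to that median. At −1 or lower were 8.37% of all genes.

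RNA polymerase I genes, whose products transcribe ribosomal RNA, had a median level ratio of 0.00 with age (7 of 13 higher, against 50.7% of all genes) and −0.32 with sex (9 of 13 lower, against 49.5%). These differences were not tested, and the list was not matched by half-life. In deciles 1 to 3 by old half-life, the shortest, all genes had level medians of −0.35, −0.31 and −0.23 with sex.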
